A study of Homo sapiens with 6 samples.

Results

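The genes described here are the amino acid transporters of 7 solute carrier (SLC) families in PANC-1, an established line of human pancreatic ductal carcinoma cells. They were chosen by name: every protein-coding gene called SLC1A, SLC3A, SLC6A, SLC7A, SLC36A, SLC38A or SLC43A followed by a number. There were 60 such genes among the 30727 listed for each library, 7 in the SLC1A family, 2 in SLC3A, 19 in SLC6A, 13 in SLC7A, 4 in SLC36A, 12 in SLC38A and 3 in SLC43A. Poly(A) RNA was sequenced from 3 libraries of PANC-1 cells with an siRNA label of SUV420H2 knockdown and from 3 with a label of control. The SUV420H2 protein, whose gene symbol is now KMT5C, methylates histone H4. The labels give neither the type of control siRNA nor when cells were collected, and an effect of losing SUV420H2 cannot be told apart from other effects of the siRNA.

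Cells take up amino acids through carriers that differ in what they carry and in what drives them. SLC1 and SLC38 carriers use the sodium gradient to bring in glutamate, glutamine and small neutral amino acids, SLC6 carriers use sodium and chloride, and SLC43 carriers let branched-chain amino acids pass down their gradient. SLC7 proteins are exchangers or cationic amino acid carriers, and many of them reach the cell surface only as light chains bound to a heavy chain of the SLC3A family. In pancreatic carcinoma cells these carriers are studied as the route for glutamine, leucine and cystine. Not every gene with such a name carries an amino acid: SLC6A8 carries creatine, SLC6A6 taurine and SLC43A3 purine bases.

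The knockdown libraries held 38022772, 27007534 and 29758241 counted reads, and the controls held 25153340, 20863594 and 25931995. Separate cultures are not mentioned in the labels. The p-values therefore reflect only the scatter among these libraries, and that scatter may be technical. Control replicate 3 stood apart: chi-square per degree of freedom was 1.98 to 2.26 for pairs of knockdown libraries, 1.55 for control replicates 1 and 2, and 11.3 and 13.6 for control replicate 3 paired with each of those. The targeted gene KMT5C averaged 6.0 ± 0.130 CPM (read counts scaled to library size with TMM) in knockdown libraries and 9.81 ± 2.72 CPM in controls (SD, n = 3 each; log2 change, knockdown over control, −0.72, SE 0.163, edgeR adjusted p = 0.00227). Control replicates 1, 2 and 3 had 9.55, 7.23 and 12.7 CPM of KMT5C. Its log2 change ran from −0.88 to −0.50 over other processing settings. The call was lost in a test against a 1.5-fold change (edgeR glmTreat adjusted p = 0.305). Of the 5 markers of a ductal carcinoma line (KRT7, KRT8, KRT18, KRT19 and EPCAM) all passed the count filter, with a summed level of 5663 to 5897 CPM in knockdown libraries and 2427 to 2969 CPM in controls. KRT7, KRT8, KRT18 and EPCAM were higher and KRT19 lower in knockdown cells. None of the 6 acinar, 4 islet, 4 astrocyte, 3 fibroblast and 3 endothelial markers passed the filter, and the highest of them had 15 reads in a library. Of the 6 microglia and leukocyte markers CD14 passed, with the list at 2.16 to 2.45 CPM in knockdown libraries and 0.675 to 0.862 CPM in controls, and of the 5 neuron markers SNAP25, SLC17A7 and GAD1 passed, with the list at 5.96 to 6.24 CPM in knockdown libraries and 5.11 to 5.80 CPM in controls. The part of such cells in the results was not tested.

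Promoter sequences are shown for 4 transporter genes on which the results turn. SLC1A7 had the largest rise, and SLC6A9 the largest fall among members with a mean of at least 1 CPM. SLC6A20 and SLC38A2 were higher and held the letters CAGGTG, in capitals, on either strand. Of the other tested genes that held these letters, SLC38A9 and SLC43A2 were higher and SLC38A10 lower, and their sequences are not shown. CAGGTG, which reads CACCTG on the other strand, is an E-box bound by the repressors ZEB1 and SNAI1. Each run is the 250 bases before the gene's start in RefSeq (GRCh38.p14), 5′ to 3′ on the gene's own strand.
SLC1A7 (chr1:53142639-53142888, minus strand): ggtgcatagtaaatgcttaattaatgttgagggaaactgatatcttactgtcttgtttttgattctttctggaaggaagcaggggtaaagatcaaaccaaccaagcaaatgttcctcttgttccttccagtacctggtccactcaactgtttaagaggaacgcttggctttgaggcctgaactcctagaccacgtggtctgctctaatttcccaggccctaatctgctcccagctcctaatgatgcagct
SLC6A20 (chr3:45796537-45796786, minus strand): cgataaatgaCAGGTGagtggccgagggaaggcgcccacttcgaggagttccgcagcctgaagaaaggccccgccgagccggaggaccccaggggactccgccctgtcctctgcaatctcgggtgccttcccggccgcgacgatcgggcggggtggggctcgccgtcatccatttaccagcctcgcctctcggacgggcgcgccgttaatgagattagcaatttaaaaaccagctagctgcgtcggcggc
SLC38A2 (chr12:46372774-46373023, minus strand): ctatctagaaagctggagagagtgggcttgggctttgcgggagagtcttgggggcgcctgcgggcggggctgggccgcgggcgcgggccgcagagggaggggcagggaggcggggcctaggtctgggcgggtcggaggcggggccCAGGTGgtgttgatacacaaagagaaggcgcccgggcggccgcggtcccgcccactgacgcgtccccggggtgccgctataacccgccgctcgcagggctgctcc
SLC6A9 (chr1:44031463-44031712, minus strand): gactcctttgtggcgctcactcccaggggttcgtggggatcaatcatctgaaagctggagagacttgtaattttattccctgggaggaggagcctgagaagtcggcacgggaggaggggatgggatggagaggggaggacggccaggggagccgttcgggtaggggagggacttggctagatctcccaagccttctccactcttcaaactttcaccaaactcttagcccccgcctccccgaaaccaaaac
A promoter was at hand for 45 of the 60 genes. For the 14 of these with several annotated starts, as for genes at large, only the start listed before the others was searched, which can lie within the gene, as it does in SLC43A2. CAGGTG was found on either strand in 8 of these, and in 5 of the 28 whose gene passed the count filter (SLC6A20, SLC38A9, SLC38A2, SLC43A2 and SLC38A10), against 17.5% of 27305 promoters of all genes. The match lay 240 bases before the start in SLC6A20 and 105 in SLC38A2. A core of the amino acid response element bound by ATF4, TGATGNAA on either strand, was found in 1 of the 45 (SLC1A3) and none of the 28, against 3.19% of all promoters. At that share, 28 promoters are too few for the absence to be read. These are matches of letters within a short window and say nothing of binding.

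SLC1A7 encodes EAAT5, a glutamate transporter with a large chloride conductance that is known from the retina. It lies on the minus strand of chromosome 1 (gene ID 6512; GRCh38 53087183 to 53142638). It had 11.3, 10.1 and 11 CPM in knockdown libraries, from 431, 273 and 330 reads, against 0.0799, 0.0964 and 0.157 CPM in controls, from 2, 2 and 4 reads. The 3 knockdown libraries lay close together, and all stood far above every control. SLC1A7 passed the count filter only through knockdown libraries. The mean was 10.8 ± 0.632 CPM in knockdown and 0.111 ± 0.0405 CPM in control (SD, n = 3 each). On the log2 scale it was higher by 6.53 (SE 0.191, edgeR adjusted p = 5.72e-10). From 1034 reads in knockdown and 8 in control libraries, the ratio of reads after depth correction was 96.5 (exact 95% interval 48.8 to 224, for counting error only). Permuting the 6 CPM values exactly gave a two-sided p = 0.1, the smallest that 3 against 3 allows. In bulk RNA, more cells with the transcript and more transcript per cell cannot be told apart.

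Per length, SLC1A7 was still a minor transporter in the knockdown cells, at 2.93 RPKM (reads scaled to library size and gene length, as adjusted by the authors) against 0.0298 RPKM in controls. Its relatives among the glutamate transporters were close to silent in all 6 libraries. SLC1A1, SLC1A2, SLC1A3 and SLC1A6 had at most 9 reads in any library, and none was tested. The gene beside SLC1A7 was higher as well. PODN, which encodes the matrix proteoglycan podocan, lies on the opposite strand, 1689 bases away, so that the 3′ ends of both genes face each other. PODN had 3.29, 2.83 and 2.96 CPM in knockdown libraries, from 126, 77 and 89 reads, against 0.0400, 0.0964 and 0.0784 CPM in controls, from 1, 2 and 2 reads. Its groups were also fully apart (log2 change 5.35, SE 0.277, edgeR adjusted p = 2.98e-08). PODN, like SLC1A7, passed the count filter only through knockdown libraries, so this separation is no further support. The annotated spans of both genes do not overlap, but the files give no position of reads within a gene, so reads running past an annotated end cannot be seen.

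The next neighbours in the files changed by much less. SCP2, a lipid transfer protein gene 35485 bases beyond SLC1A7 on the side of PODN, had 203, 195 and 206 CPM in knockdown libraries, against 113, 108 and 94.2 CPM in controls (log2 change 0.94, SE 0.0630, edgeR adjusted p = 2.19e-07). CPT2, the inner mitochondrial carnitine palmitoyltransferase gene 54186 bases away on the other side, had 36.6, 36.7 and 35.2 CPM in knockdown libraries, against 29.6, 29.3 and 29.98 CPM in controls (log2 change 0.29, SE 0.0534, edgeR adjusted p = 0.000611). The pair of SLC1A7 and PODN was thus near 0 in controls, while SCP2 and CPT2 were well expressed in both groups.

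**Figure D1:**
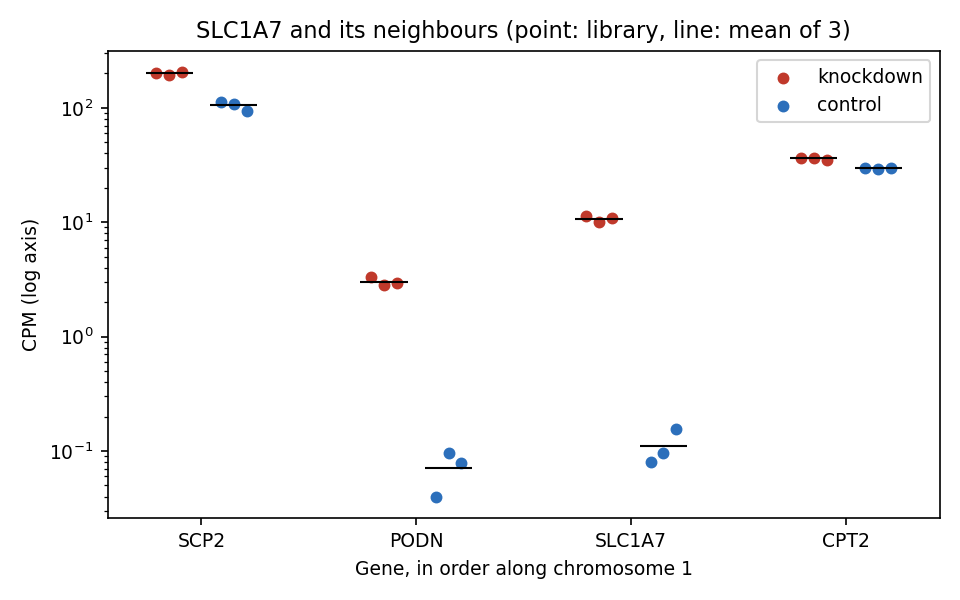
CPM on a log axis for SCP2, PODN, SLC1A7 and CPT2, in their order along chromosome 1, with points for the 3 knockdown (red, left) and 3 control (blue, right) libraries and a line at each mean. SLC1A7 and PODN lie at 0.157 CPM or less in every control and at 2.83 CPM or more in every knockdown library, while SCP2 and CPT2 differ by less than 2-fold between group means. SLC1A7 and PODN passed the count filter only through knockdown libraries.

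Across the families, 34 of the 60 genes passed the count filter, and the other 26 had at most 9 reads in any library. Of the 34, 20 were higher and 11 lower in knockdown cells at an adjusted p below 0.05, and 3 did not pass (SLC7A1, SLC7A6 and SLC38A6). Over all genes tested, 67.3% were called, 33.1% higher and 34.2% lower, so a call alone says little about a member here. Knockdown and control values were fully separate for 33 of the 34, all but SLC38A6, against 71.3% of all genes tested. The median log2 fold change was 0.27 over the 34, against −0.01 over all genes tested. The filter itself bears on these figures: 7 of the 34 passed only through their level in knockdown libraries (SLC1A7, SLC6A12, SLC6A16, SLC6A20, SLC7A7, SLC7A8 and SLC7A10) and 1 only through controls (SLC38A5). Of the 26 that passed in both groups, 13 were higher and 10 lower, with a median of 0.14. Against a 1.5-fold change, 11 of the 34 were higher and 3 lower (edgeR glmTreat), where 10.6% and 9.16% of all genes passed in those directions; of the 26 that passed the filter in both groups, 4 were higher and 2 lower. At least 2-fold, 8 were higher and 3 lower, against 8.01% and 6.01% of all genes. Of the same 26, 1 was higher and 2 were lower. The shares over all genes include genes that the filter admitted through 1 group, so they are no like measure for the 26. The larger counts of higher genes at 1.5-fold and 2-fold over the 34 thus rest mostly on genes that the filter admitted through 1 group. The separation of such genes is no further support, and SLC38A6, which overlapped, passed in both groups. Without control replicate 3 the counts were 20 higher and 12 lower.

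**Figure D2:**
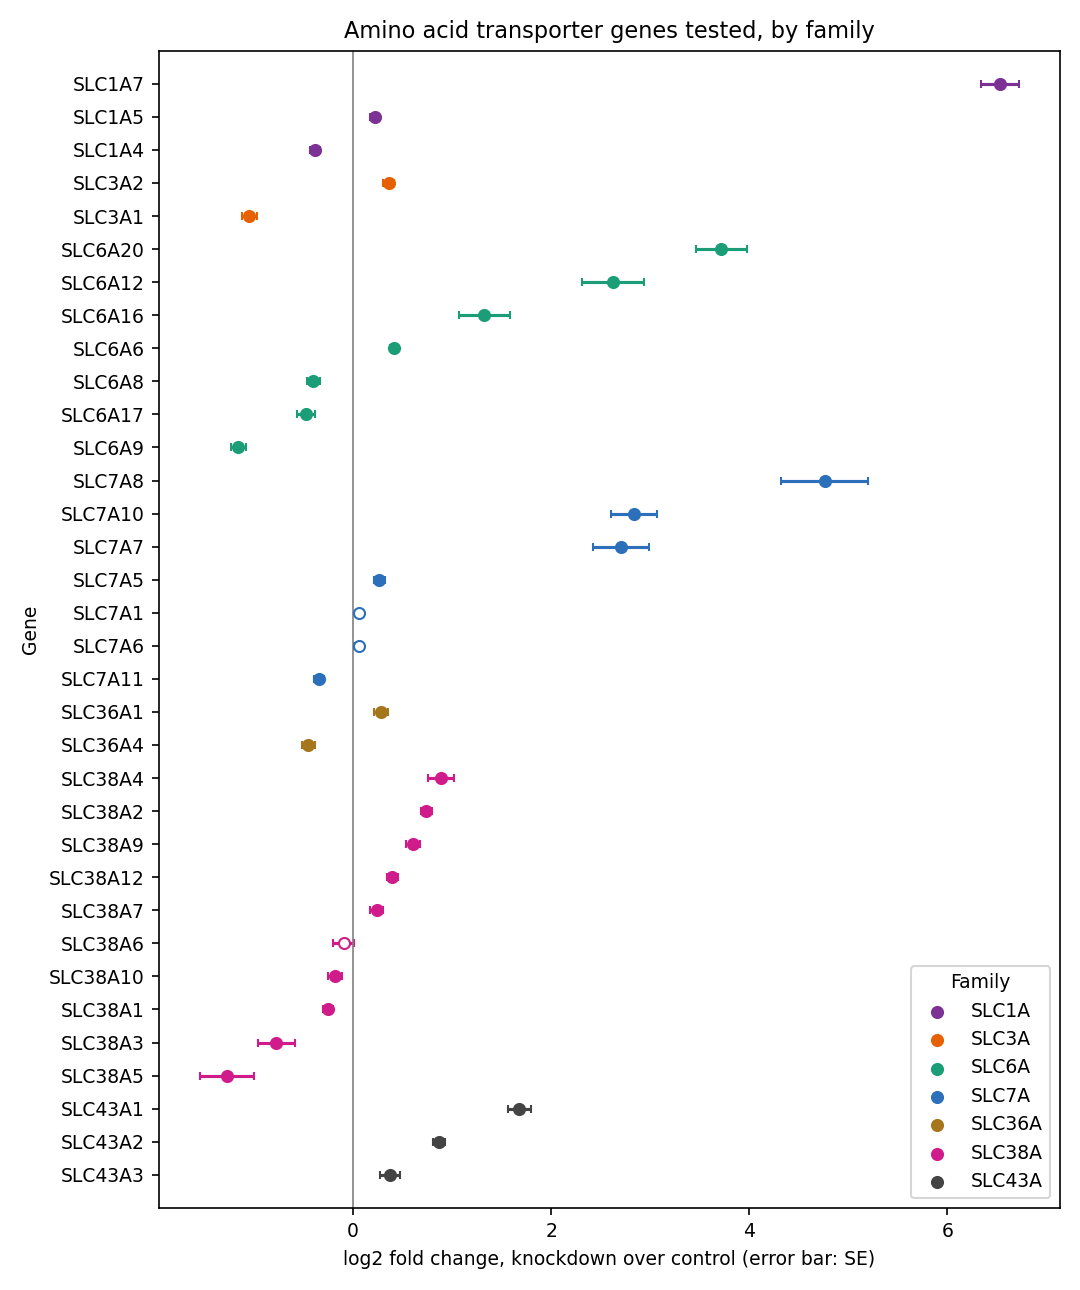
Log2 fold change of knockdown over control (x axis) for the 34 transporter genes tested (y axis), coloured by family, with the SE as error bar; filled points passed an adjusted p of 0.05 and open points did not. SLC1A7 lies at 6.53, the 3 SLC43A genes all lie right of 0, and the SLC6A and SLC38A families spread to both sides.

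Most of the transporter RNA came from a few genes. Compared per length, 6 genes (SLC7A5, SLC38A2, SLC3A2, SLC1A5, SLC38A1 and SLC7A1) made up 79.0%, 78.6% and 79.0% of the summed RPKM of all 60 in knockdown libraries, and 75.0%, 74.9% and 74.6% in controls. The 11 genes with a mean of at least 10 RPKM had log2 fold changes from −0.40 to 0.74. The summed RPKM was 851, 830 and 837 in knockdown libraries, against 689, 688 and 706 in controls. The share of counted reads that fell on these genes was 0.427%, 0.419% and 0.421% in knockdown libraries, against 0.356%, 0.357% and 0.359% in controls. Both measures were higher in every knockdown library than in any control (exact two-sided permutation p = 0.1 for each, the smallest that 3 against 3 allows).

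**Figure D3:**
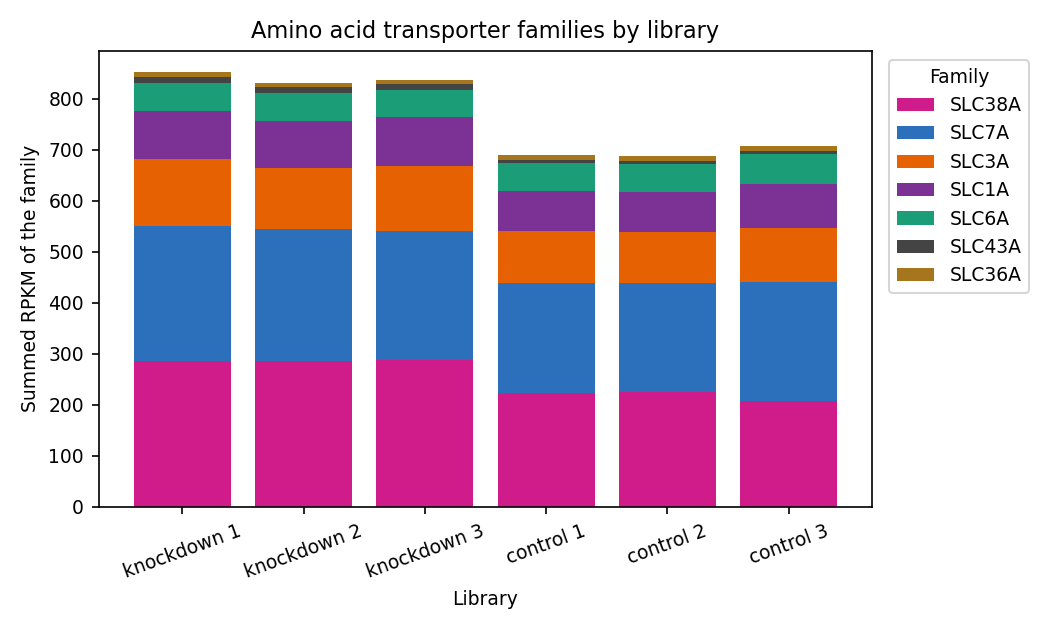
Summed RPKM (y axis, from 0) of the 7 families, stacked, in each of the 3 knockdown and 3 control libraries. The SLC38A band, 285 to 288 RPKM in knockdown libraries and 207 to 225 RPKM in controls, adds most to the difference in height.

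The sodium-coupled glutamine and neutral amino acid carriers of the SLC38A family, of which 10 of 12 were tested, split into 5 higher, 4 lower and 1 that did not pass. Over all genes tested, 33.1% were higher and 34.2% lower. SLC38A2 encodes SNAT2, a carrier of small neutral amino acids that cells are known to induce when amino acids run short. It had 874, 869 and 894 CPM in knockdown libraries, against 548, 553 and 478 CPM in controls. The groups were far apart: SLC38A2 was 1.67-fold higher, or 0.74 on the log2 scale (SE 0.0556, edgeR adjusted p = 5.22e-07). At 176 RPKM in knockdown against 104 RPKM in control libraries it was among the most abundant of all 60. SLC38A1, the glutamine carrier SNAT1, fell to 435, 438 and 436 CPM in knockdown libraries, against 531, 554 and 475 CPM in controls (log2 change −0.25, SE 0.0537, edgeR adjusted p = 0.00156). These genes are neighbours on chromosome 12, and with SLC38A4 they span 649369 bases (GRCh38).

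SLC38A4, the third of that cluster and another small neutral amino acid carrier, was rare and rose to 5.22, 5.82 and 4.76 CPM in knockdown libraries, against 3.32, 2.65 and 2.55 CPM in controls (log2 change 0.88, SE 0.132, edgeR adjusted p = 0.000121). The cluster therefore held changes in both directions. The lysosomal members were also higher. SLC38A9, which senses arginine at the lysosome, had 26.3, 26.1 and 27.9 CPM in knockdown libraries, against 19.2, 16.9 and 16.8 CPM in controls (log2 change 0.60, SE 0.0714, edgeR adjusted p = 2.04e-05). SLC38A7, which exports glutamine from lysosomes, was higher by 0.24 on the log2 scale (SE 0.0699, edgeR adjusted p = 0.0111), a call lost without control replicate 1 (adjusted p = 0.0518). SLC38A12, formerly TMEM104, was higher by 0.39 (SE 0.0546).

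The system N carriers, which move glutamine and histidine in exchange for protons, were rare and lower. SLC38A3 had 1.12, 0.847 and 0.799 CPM in knockdown libraries, against 1.60, 1.49 and 1.72 CPM in controls (log2 change −0.78, SE 0.187, edgeR adjusted p = 0.00349). SLC38A5 had 10, 10 and 8 reads in knockdown libraries, against 20, 13 and 18 reads in controls (log2 change −1.27, SE 0.275, edgeR adjusted p = 0.00171). The groups did not overlap in CPM for either gene, nor for 71.3% of all genes tested. SLC38A5 passed the count filter only through controls, so its separation is no further support. SLC38A10 stood at −0.18 (SE 0.0675, edgeR adjusted p = 0.0309) and lost its call when any single knockdown library was left out (adjusted p = 0.0622 to 0.114). SLC38A6 shares 446 bases with TRMT5 (−0.66). It had overlapping groups, at 10.8, 9.83 and 11.3 CPM in knockdown libraries and 12.9, 11.6 and 9.72 CPM in controls (−0.09, SE 0.107, edgeR adjusted p = 0.454), and passed as lower without control replicate 3 (−0.21, adjusted p = 0.0323).

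The SLC7A family, of which 7 of 13 genes were tested, had 4 higher, 1 lower and 2 that did not pass, where 33.1% of all genes were higher and 34.2% lower. Of these, 3 of the higher genes passed the filter only through knockdown libraries, and the 4 genes that passed in both groups held 1 higher and 1 lower. Its main member SLC7A5 encodes LAT1, the exchanger that brings in leucine and other large neutral amino acids. SLC7A5 had 971, 950 and 925 CPM in knockdown libraries, against 761, 748 and 861 CPM in controls (log2 change 0.26, SE 0.0547, edgeR adjusted p = 0.0013). Its groups were separated by a narrow margin. At 201 RPKM in knockdown and 165 RPKM in control libraries it had the highest level of all 60. The near-identical pseudogenes SLC7A5P1 and SLC7A5P2 had 18 to 37 reads in knockdown libraries and 7 to 28 in controls, and reads shared by such copies are lost when only unique alignments are counted, so the SLC7A5 level is uncertain by that loss.

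Further light chains, all rare, rose by much more. SLC7A8, the LAT2 exchanger of neutral amino acids, had 43, 33 and 44 reads in knockdown libraries, against 1, 0 and 2 reads in controls, or 29.9 times as many after depth correction (exact 95% counting interval 9.98 to 147, edgeR adjusted p = 2.76e-06). Its log2 change was 4.76, and 5.58 without control replicate 3. SLC7A10, the Asc-1 carrier of small neutral amino acids including D-serine, had 2.27, 2.50 and 1.93 CPM in knockdown libraries, against 0.240, 0.386 and 0.314 CPM in controls (log2 change 2.84, SE 0.232, edgeR adjusted p = 1.04e-06); it shares 201 bases with LRP3, which was at −0.31. SLC7A7, the y+LAT1 exchanger that lets cationic amino acids out of cells, had 2.32, 2.17 and 3.0 CPM in knockdown libraries, against 0.599, 0.289 and 0.235 CPM in controls (log2 change 2.71, SE 0.280, edgeR adjusted p = 6.92e-06). In each of the 3 genes every knockdown library stood above every control. All 3 passed the count filter only through knockdown libraries, so this separation is no further support. SLC7A7 is also expressed in macrophages. The leukocyte marker CD14 was higher too, at 1.79 CPM in knockdown and 0.529 CPM in control libraries on average. No other marker on that list passed the filter. Of these, CSF1R had 39 reads in knockdown and 11 in control libraries together. AIF1 had 5 and 1, CX3CR1 5 and 4, and CD3E 1 and 1. PTPRC, which marks all leukocytes, had 2 and 1. The part of such cells in the SLC7A7 value was not tested. SLC7A7 and SLC7A8 lie within a span of 410439 bases on chromosome 14.

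SLC7A11 encodes xCT, which brings in cystine in exchange for glutamate. It was lower, with 70.3, 70.7 and 69.2 CPM in knockdown libraries, against 91.1, 93.5 and 82.7 CPM in controls (log2 change −0.35, SE 0.0529, edgeR adjusted p = 0.000144). SLC7A11-AS1, which overlaps it, was at −0.53 on the same scale, and without a stated strand setting the reads of both cannot be told apart. SLC7A1, the main cationic amino acid carrier CAT-1, had 292, 291 and 278 CPM in knockdown libraries and 274, 277 and 273 CPM in controls, groups that do not overlap but whose difference did not pass (log2 change 0.06, SE 0.0394, edgeR adjusted p = 0.172). SLC7A6, another exchanger of cationic and neutral amino acids, stood at 0.06 (SE 0.0436, edgeR adjusted p = 0.27) and shares 3786 bases with SLC7A6OS. The 6 untested SLC7A genes had at most 9 reads in any library.

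The heavy chains went in opposite directions. SLC3A2, the CD98 heavy chain that carries SLC7A5, SLC7A6, SLC7A7, SLC7A8, SLC7A10 and SLC7A11 to the cell surface, rose to 375, 339 and 363 CPM in knockdown libraries, against 274, 268 and 298 CPM in controls (log2 change 0.36, SE 0.0533, edgeR adjusted p = 0.000118). SLC3A1, the rBAT heavy chain of the kidney and gut cystine carrier, fell to 10.1, 9.65 and 10.9 CPM in knockdown libraries, against 22.5, 20.9 and 20.2 CPM in controls (log2 change −1.05, SE 0.0770, 48.3% of the control level, edgeR adjusted p = 4.34e-07). Both heavy chains had groups that did not overlap, as did 71.3% of all genes tested. SLC3A1 shares 4831 bases with PREPL, which was also lower (−0.95), and with no stated strand setting its value is uncertain. The light chains that pair with SLC3A1, SLC7A9 and SLC7A13, had at most 5 reads in any library.

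Set against SLC3A2 per length, its 6 partner light chains together gave ratios of 1.78, 1.94 and 1.77 in knockdown libraries, against 1.96, 1.97 and 2.00 in controls. The groups were just apart, at 1.83 ± 0.0945 in knockdown and 1.98 ± 0.0192 in control (SD, n = 3 each), with an exact two-sided permutation p of 0.1, the smallest that 3 against 3 allows. SLC7A5 made up 90.4% to 91.0% of the summed light chain RPKM in knockdown libraries and 88.4% to 90.5% in controls. The 3 rare light chains SLC7A7, SLC7A8 and SLC7A10 together came to 2.20, 2.28 and 2.34 RPKM in knockdown libraries, against 0.342, 0.296 and 0.253 RPKM in controls, a small part of the light chain level in both groups. SLC7A11 per SLC3A2 was 0.0559, 0.0623 and 0.0569 in knockdown libraries, against 0.0994, 0.104 and 0.0829 in controls.

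**Figure D4:**
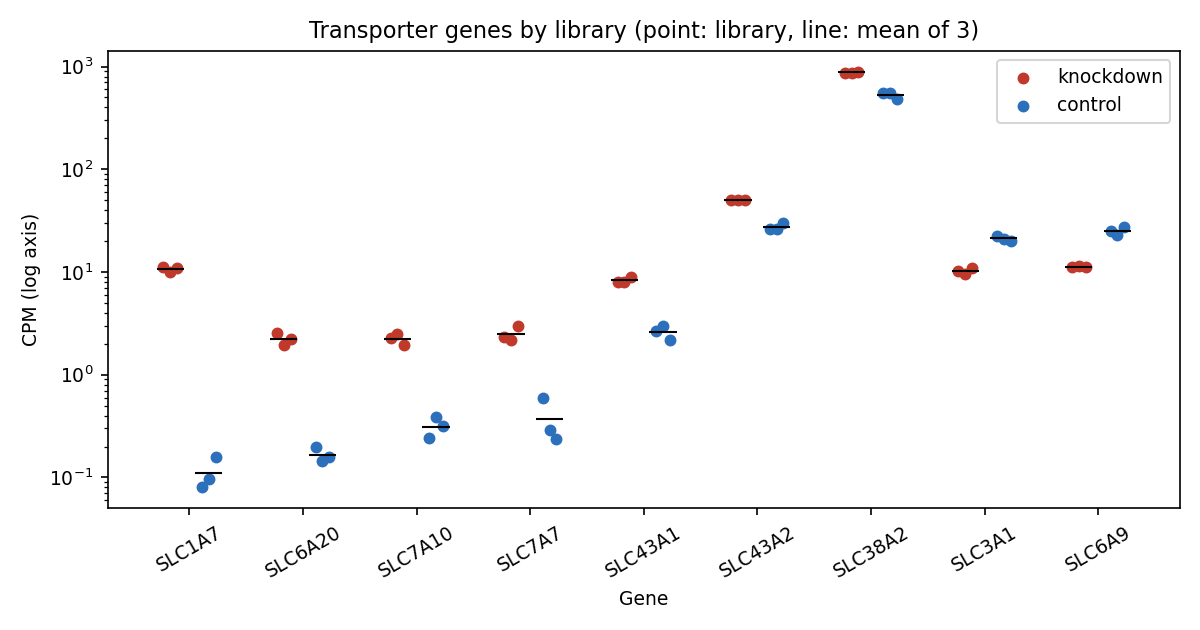
CPM on a log axis for 9 named transporter genes, with points for the 3 knockdown (red, left) and 3 control (blue, right) libraries and a line at each mean. In SLC1A7, SLC6A20, SLC7A10, SLC7A7, SLC43A1, SLC43A2 and SLC38A2 all knockdown points lie above all control points, and in SLC3A1 and SLC6A9 all lie below. SLC1A7, SLC6A20, SLC7A10 and SLC7A7 passed the count filter only through knockdown libraries.

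The SLC6A family, of which 7 of 19 genes were tested, had 4 higher and 3 lower. Over all genes tested, 33.1% were higher and 34.2% lower. The balance turned among the 4 that passed the filter in both groups, with 1 higher and 3 lower, since 3 of the higher genes passed only through knockdown libraries. SLC6A20, the proline and imino acid carrier SIT1, had 2.56, 1.95 and 2.23 CPM in knockdown libraries, from 98, 53 and 67 reads, against 0.200, 0.145 and 0.157 CPM in controls, from 5, 3 and 4 reads. It was fully apart between groups (log2 change 3.72, SE 0.261, 13.2-fold, edgeR adjusted p = 3.00e-07). SLC6A20 passed the filter only through knockdown libraries, so this separation is no further support. SLC6A12, the betaine and GABA carrier BGT-1, had 37, 25 and 23 reads in knockdown libraries, against 3, 3 and 4 reads in controls (log2 change 2.63, SE 0.311, edgeR adjusted p = 2.04e-05). SLC6A13, beside it on chromosome 12, had at most 4 reads in any library. SLC6A16 had 45, 22 and 28 reads in knockdown libraries, against 9, 8 and 11 reads in controls (1.33, SE 0.258, edgeR adjusted p = 0.000852), and shares 4925 bases with CD37, which was at 1.20, so its value is uncertain.

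The taurine carrier SLC6A6, at 28.3 RPKM in knockdown and 20.9 RPKM in control libraries the most abundant SLC6A gene by its mean over all 6, was higher by 0.42 (SE 0.0401, edgeR adjusted p = 3.77e-06). It shares 243 bases with GRIP2, which was at 0.78. SLC6A9 encodes the glycine carrier GlyT1. It fell to 11.1, 11.4 and 11.1 CPM in knockdown libraries, against 24.8, 23.1 and 27.1 CPM in controls. The fall, to 44.7% of the control level, was the deepest among members with a mean of at least 1 CPM (log2 change −1.16, SE 0.0757, edgeR adjusted p = 1.73e-07). SLC6A9 shares 46 bases with CCDC24, which was at −0.995. The creatine carrier SLC6A8, at 20.7 RPKM in knockdown and 27.1 RPKM in control libraries and so above SLC6A6 in controls, was at −0.40 (SE 0.0666, edgeR adjusted p = 0.000258) and SLC6A17, a vesicular neutral amino acid carrier of neurons, at −0.47 (SE 0.0883, edgeR adjusted p = 0.000626). The 12 untested SLC6A genes, among them the carriers of dopamine (SLC6A3), serotonin (SLC6A4) and noradrenaline (SLC6A2), had at most 9 reads in any library. The summed SLC6A level was 54.7, 54.3 and 53.4 RPKM in knockdown libraries and 54.4, 55.0 and 59.2 RPKM in controls, with overlapping groups (exact two-sided permutation p = 0.2).

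All 3 SLC43A genes were higher, where 33.1% of all genes tested were higher. SLC43A1 encodes LAT3, a facilitator of branched-chain amino acids. It had 7.96, 8.03 and 8.92 CPM in knockdown libraries, against 2.64, 2.99 and 2.19 CPM in controls (log2 change 1.68, SE 0.120, 3.20-fold, edgeR adjusted p = 3.49e-07). SLC43A2, the related LAT4, had 50.03, 50.2 and 49.9 CPM in knockdown libraries, against 26.3, 25.9 and 29.98 CPM in controls (log2 change 0.87, SE 0.0637, edgeR adjusted p = 4.41e-07). SLC43A3, the purine base carrier, lies within a span of 108749 bases with SLC43A1 on chromosome 11 and was at 0.37 (SE 0.101, edgeR adjusted p = 0.00682). The groups did not overlap for any of the 3 genes, nor for 71.3% of all genes tested. The summed SLC43A level was 11.8 ± 0.304 RPKM in knockdown and 6.54 ± 0.136 RPKM in control libraries (SD, n = 3 each).

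Among the remaining neutral amino acid carriers the changes were small. SLC1A5, the glutamine exchanger ASCT2, had 318, 309 and 316 CPM in knockdown libraries, against 262, 258 and 291 CPM in controls (log2 change 0.22, SE 0.0496, edgeR adjusted p = 0.00249). SLC1A4, the related ASCT1, was lower at 40.8, 40.4 and 40.4 CPM in knockdown libraries, against 52.2, 54.6 and 52.3 CPM in controls (log2 change −0.39, SE 0.0488, edgeR adjusted p = 3.38e-05). In the proton-coupled SLC36A family the lysosomal SLC36A1 was at 0.28 (SE 0.0687, edgeR adjusted p = 0.00362). SLC36A4, its most abundant member, fell to 29.01, 27.2 and 29.3 CPM in knockdown libraries, against 39.6, 41.0 and 36.5 CPM in controls (log2 change −0.45, SE 0.0628, edgeR adjusted p = 7.11e-05). SLC36A2 and SLC36A3 had at most 3 reads in any library.

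Of 17 tested genes of other amino acid transporter families 11 were higher and 2 lower, where 33.1% of all genes were higher and 34.2% lower, with a median log2 fold change of 0.34. SLC17A5, the lysosomal exporter of sialic acid and acidic amino acids, was at 0.97 (SE 0.0663, edgeR adjusted p = 2.47e-07) and SFXN3, a mitochondrial serine carrier, at 0.91 (SE 0.0602, edgeR adjusted p = 1.85e-07). The lower genes were SLC25A15, the mitochondrial ornithine carrier, at −0.31 (SE 0.0635, edgeR adjusted p = 0.00131), and CTNS, the lysosomal cystine exporter, at −0.17 (SE 0.0695, edgeR adjusted p = 0.0487). CTNS had overlapping groups and lost its call in the test against a 1.5-fold change. The call was also lost with DESeq2 size factors (edgeR adjusted p = 0.0605) and with a mean log2 CPM of at least 1 (0.0675). So it was with the DESeq2 Wald test (adjusted p = 0.0885). Without knockdown replicate 2 (edgeR adjusted p = 0.179), knockdown replicate 3 (0.141) or control replicate 1 (0.195) CTNS did not pass either.

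Enzymes of amino acid metabolism were described by list, beside 33.1% higher and 34.2% lower over all genes. Of 20 tested genes of serine, glycine and one-carbon metabolism 3 were higher and 11 lower, with a median of −0.29. The mitochondrial folate enzyme MTHFD2 was at −0.98 (SE 0.0446, edgeR adjusted p = 1.11e-08) and MAT2A, which makes S-adenosylmethionine, at −0.79 (SE 0.0458, edgeR adjusted p = 6.84e-08), while TYMS, thymidylate synthase, was at 0.39. Of 26 tested genes of glutamate and glutamine metabolism 7 were higher and 13 lower, with a median of −0.17. ASNS, asparagine synthetase, had 217 CPM in knockdown and 380 CPM in control libraries on average (−0.81, SE 0.0485, edgeR adjusted p = 8.91e-08), and ALDH18A1, which starts proline synthesis, was at −0.91. CTPS1, CTP synthase (0.64), and GFPT1, which uses glutamine to make hexosamine (0.52), were higher. The difference between lists was not tested.

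The stress and sensing lists were mixed, as was the glutathione list, beside 33.1% higher and 34.2% lower over all genes tested. Of 26 genes of the integrated stress response and its factor ATF4, which drives many amino acid transporter genes, 11 were higher and 13 lower, with a median of −0.16. ATF3 (1.77, SE 0.0540) and PPP1R15A, which ends the response (1.06, SE 0.0626), were higher, and CEBPG, a partner of ATF4 (−0.997, SE 0.0392), and DDIT4, an inhibitor of mTORC1 (−1.22, SE 0.0541), were lower. ATF4 itself, named after its value was seen, was at −0.77 (SE 0.0397, edgeR adjusted p = 2.94e-08). Of 37 genes of amino acid sensing upstream of mTORC1 15 were higher and 11 lower, with a median of 0.03. RRAGD, a Rag GTPase (1.28, SE 0.0585), and the leucine sensor SESN2 (0.89, SE 0.0546) were higher, and NPRL3, a subunit of the inhibitor GATOR1 (−0.85, SE 0.0772), and RRAGA, another Rag GTPase (−0.62, SE 0.0655), were lower. Of 17 genes of cysteine and glutathione synthesis 7 were higher and 7 lower, with GSR, glutathione reductase (1.05, SE 0.0435), and GGCT (0.68, SE 0.0479) above, and GCLC, the catalytic subunit of glutamate-cysteine ligase (−1.06, SE 0.0480), and the peptidase ANPEP (−1.22, SE 0.0494) below 0.

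**Figure D5:**
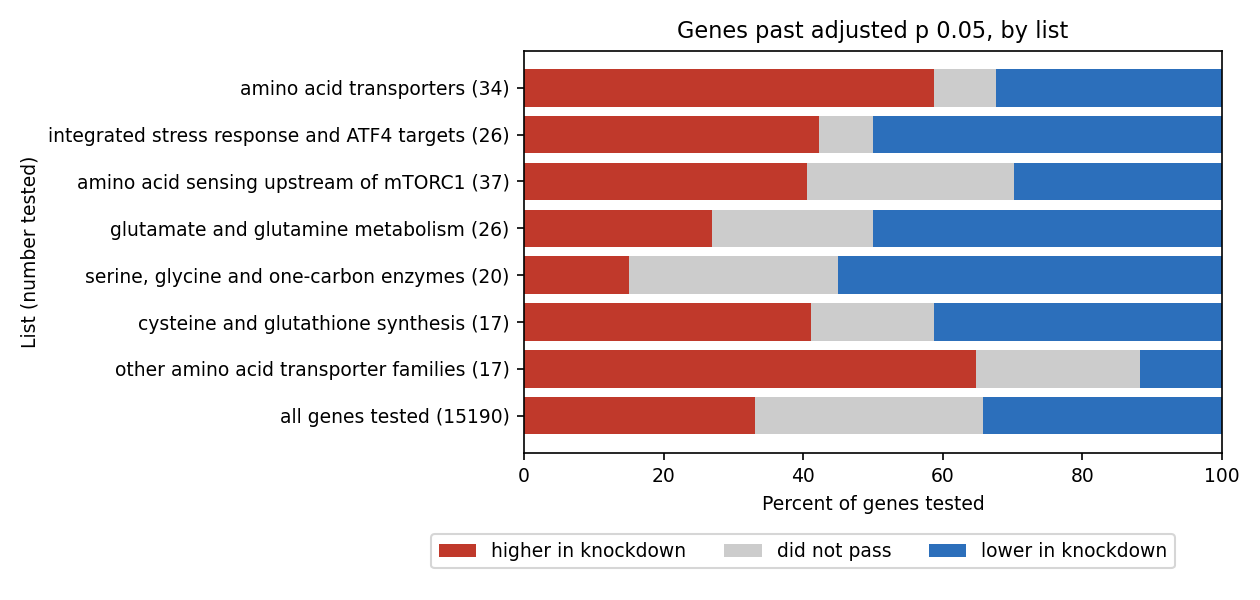
Percent of tested genes that were higher (red), did not pass (grey) or were lower (blue) in knockdown cells at an adjusted p of 0.05, for the transporters, 6 further lists and all genes tested, with the number tested in brackets. The transporters have 20 of 34 genes higher, and the serine, glycine and one-carbon list 3 of 20, against 33.1% over all genes. Of the 34 transporters, 7 passed the count filter only through knockdown libraries. The 26 that passed in both groups had 13 higher and 10 lower.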

How the data were processed

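The submitters' processing notes name GSNAP, an aligner, and GRCh38. No version, annotation release, strand setting or kind of size factor was found in the labels or headers. Per the file headers, each of the 6 deposited files holds a count of uniquely aligned reads per gene model and an RPKM value that the authors adjusted by a size factor. Dividing count by RPKM gave a library constant times a gene constant for 11875 genes, so the deposited counts were tested and the RPKM were used only to compare levels between genes. Unique alignment lowers genes with near-identical copies.

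RefSeq (GRCh38.p14) gave a symbol to 27814 of 30727 gene IDs. Counts were filtered with filterByExpr (minimum count 10, minimum total 15; 15190 genes left), scaled by TMM and fitted across all genes by the quasi-likelihood method of edgeR 4.0.16 under R 4.3.3 (two-sided glmQLFTest), with Benjamini-Hochberg adjustment over all genes tested and a threshold of 0.05. Each SE belongs to a log2 fold change (knockdown over control). Strands of neighbours came from GENCODE 29. The procedure was checked on simulated counts. No pair of libraries held identical counts, all replicate pairs differed by more than sampling noise, and each counted as 1 library. The labels give no replicate numbers or batches, and replicates are numbered in accession order.

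Members and lists were chosen with earlier results of these data known. Named members were SLC1A7, those past the threshold with an absolute log2 fold change of at least 1 and a mean log2 CPM of at least 0, the most abundant gene of each family, SLC3A2, SLC7A5 and SLC7A11. Of each list the 2 genes with the smallest p in each direction were named, except 1 that is not reported here. Other genes were named after their values were seen. Alternatives were DESeq2 1.42.0 size factors and Wald test, upper-quartile scaling, other filters, limma-voom (limma 3.58.1) with and without sample weights, a test against a 1.5-fold change, and leaving out each library.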

Additional observations from a re-analysis of the deposited data

How the results depend on the processing

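The counts of 20 higher and 11 lower transporter genes stayed within 1.5 times under each alternative except the test against a 1.5-fold change, which left 11 higher and 3 lower and, over all genes, 2998 of 10216. Leaving out single libraries gave 19 to 20 higher and 10 to 12 lower. The log2 fold change of SLC1A7 ran from 6.34 to 6.88 over all 14 alternatives and passed in each. Besides the 1.5-fold test, alternatives changed a call for 3 of the 34 genes: SLC38A10 and SLC38A7, which lost it in some, and SLC38A6, which passed as lower with sample weights (−0.20, adjusted p = 0.0301) and without control replicate 3 (−0.21), and turned to 0.017 without control replicate 1 (adjusted p = 0.905). The median over the tested genes was 0.46 with no count filter, 0.24 with a mean log2 CPM of at least 1, 0.31 with sample weights, and between 0.24 and 0.31 without single libraries; the members tested differ between filters. The ratio of light chains to SLC3A2 averaged 1.83 in knockdown and 1.98 in control libraries, 0.170 in knockdown and 0.213 in control libraries without SLC7A5, and its difference of −0.15 (knockdown minus control) ran from −0.20 to −0.12 without single libraries, where 2 against 3 cannot give an exact p below 0.2. Counts of the other lists moved by over 1.5 times in 18 of 168 fits. The count filter left out 26 of the 60, and with no filter the counts were again 20 higher and 11 lower. Those 26 had at most 9 reads in any library and could hardly be called. The equal counts therefore say nothing of genes admitted only through knockdown or only through control libraries. No paired analysis was possible because the labels carry no replicate numbers.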
